A study of Caenorhabditis elegans with 21 samples.

Results

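The chromosome V centre is the gene-dense middle of the longest autosome of the nematode Caenorhabditis elegans. It was taken as the windows of 500 bp on chromosome V that start after position 5897000 and end by position 16550000 (build ce10), which gives 21306 windows, or 10653 kb, of 200547 windows in the genome. The flanking left arm holds 11794 windows, the right arm 8749, and the other chromosomes 158698. No measured value was used to choose the windows. The counts carry no gene names and no strand, so every result below is given for a window or for a stretch of adjacent windows.

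Total RNA depleted of ribosomal RNA was sequenced from early embryos grown at 20 °C. The doubles were nrde-3 set-25, that is set-25(n5021) III with nrde-3(tm1116) X, lin-61 set-25, that is set-25(n5021) III with lin-61(tm2649) I, and nrde-3 met-2, labelled met-2(n4256) III with nrde-3(tm1116) X. The singles were lin-61(tm2649) I and nrde-3(tm1116) X, and the wild type was N2 (Bristol). Each of the 6 genotypes had 3 libraries, 18 in all, although the labels speak of a smaller number of independent biological replicates, so the p-values below measure the spread between libraries, part of which may be technical.

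In C. elegans, methylation of lysine 9 of histone H3 marks silent chromatin. MET-2 places the lower methylation states and SET-25 is needed for the trimethylated state. LIN-61 is a protein with MBT domains that binds methylated H3K9, and NRDE-3 is an Argonaute that carries small RNAs into the nucleus of somatic cells, where it directs silencing of matching nascent transcripts. The arms of C. elegans autosomes are rich in repeats and in H3K9 methylation, whereas the centres are gene-dense and hold more of the strongly expressed genes. The title of the series poses NRDE-3 and LIN-61 as parallel routes that bring the H3K9me3 methyltransferase to chromatin in somatic cells.

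Depth ran from 22275571 to 28834312 reads per library in nrde-3 and the 3 doubles, from 59462797 to 66437115 in lin-61, and from 54839178 to 67553226 in N2. The titles carry the prefix 875 for N2 and lin-61 and 1121 for the other genotypes, so nrde-3 against N2 and lin-61 set-25 against lin-61 each cross this prefix, and prefix and genotype cannot be told apart within those pairs. Reads over III 13288001 to 13289500 were lost in nrde-3 set-25, lin-61 set-25 and the libraries labelled nrde-3 met-2 alike, while 0 windows were lost in the libraries labelled nrde-3 met-2 and in no other genotype. In the 3 windows there the libraries labelled nrde-3 met-2 held 1, 0 and 46 reads together, against 1322, 569 and 551 in nrde-3. In nrde-3 set-25 they were 0, 0 and 65. These reads thus did not bear out the met-2 label, and show the loss shared by both set-25 doubles. Whether met-2 is mutated in those libraries could not be checked. They are called the libraries labelled nrde-3 met-2. They also carried reads in windows that were near empty elsewhere: over 5361 windows of the centre with at most 2 reads in all N2 and lin-61 libraries together, their mean level was 0.0922 to 0.329 CPM, against 0.0041 to 0.0052 CPM in nrde-3. In the same windows nrde-3 set-25 had 0.00766 to 0.0161 CPM and lin-61 set-25 0.0095 to 0.0248 CPM. A fit with a background subtracted is given beside the results of the libraries labelled nrde-3 met-2. In every library it took off the mean reads of 32328 such windows over the genome, and rounded.

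In wild-type embryos most of the centre was quiet and a few sites dominated it. In N2, 19.9 ± 0.554% of its windows reached 1 CPM (reads per 1000000 reads of the scaled library), as a mean ± SD over 3 libraries, against 14.9 ± 0.111% of the windows in the arms of chromosome V. A total of 9052 windows, 42.5% of the centre, had at most 3 reads over the 3 N2 libraries. At the other end, 147 windows of at least 100 CPM in N2 formed 87 stretches and held 55.4% of the N2 reads of the centre, and the 5 highest stretches alone held 27.0%. The centre as a whole took 10.01 to 12.4% of each library's reads and 59.2 to 77.4% of the reads of chromosome V.

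The stretch of V 16040001 to 16043000 was the most abundant in N2. It summed to 5594, 7047 and 10483 CPM in nrde-3 set-25, while lin-61 set-25 had 4097, 5874 and 3513 CPM. The libraries labelled nrde-3 met-2 had 4591, 4354 and 4359 CPM there. The singles had 9779, 17259 and 13644 CPM in lin-61, and 8098, 3717 and 4300 CPM in nrde-3, against 10579, 17000 and 13208 in N2. The lin-61 and N2 libraries overlapped, and the 3 nrde-3 libraries and all 3 lin-61 set-25 libraries lay below every lin-61 and N2 library. The same held in the next 4 stretches, at V 8897501 to 8898500, 8534501 to 8535500, 8889501 to 8890500 and 8847501 to 8848500. The first of them averaged 2197 ± 613 CPM in lin-61 set-25, against 8251 ± 2695 in lin-61, and 3079 ± 1378 CPM in nrde-3, against 7748 ± 2602 in N2 (SD, n = 3 each). Of the 14 windows in the 5 stretches, 11 were called lower in nrde-3 against N2 and 12 in lin-61 set-25 against lin-61, the comparisons that cross the prefix, 2 were called higher in nrde-3 set-25 against lin-61 set-25, and 0 were called in the other 3 comparisons.

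A larger share of the windows of the centre reached 1 CPM in the mutants. Windows of at least 1 CPM made up 22.9 ± 0.734% of the centre in nrde-3 set-25, 24.5 ± 2.42% in lin-61 set-25, 22.6 ± 1.43% in the libraries labelled nrde-3 met-2, 22.3 ± 0.305% in lin-61, 20.8 ± 0.557% in nrde-3 and 19.9 ± 0.554% in N2. The 3 libraries of lin-61 and the 3 of nrde-3 lay above all 3 of N2, and the 3 of nrde-3 set-25 above all 3 of nrde-3. The exact two-sided permutation test gave p = 0.1 for each of these, the smallest value that 3 against 3 allows, and 0.2 after adjustment over the 6 comparisons. The lin-61 set-25 libraries, with 22.5 to 27.1%, overlapped those of lin-61, with 21.9 to 22.5%, and lin-61 set-25 replicate c was the highest of all 18. The order depends on the level: at 5 CPM the difference in share was -0.305 percentage points in nrde-3 against N2, -0.523 in the libraries labelled nrde-3 met-2 against nrde-3 and -0.149 in lin-61 set-25 against lin-61. Windows without any read were 37.9 to 43.0% of the centre in nrde-3, against 30.2 to 34.6% in the more deeply sequenced N2.

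The arms moved less than the centre by this measure. The share of windows of at least 1 CPM in the centre divided by that in the arms was 1.42 ± 0.0171 in lin-61 and 1.33 ± 0.0275 in N2. It was 1.46 ± 0.0105 in nrde-3 set-25 and 1.41 ± 0.035 in nrde-3, and 1.48 ± 0.0468 in lin-61 set-25 and 1.42 ± 0.0171 in lin-61. In each of these pairs the libraries did not overlap (exact permutation p = 0.1, adjusted 0.15). The libraries labelled nrde-3 met-2 had 1.41 ± 0.0593 against 1.41 ± 0.035 in nrde-3 and overlapped them (exact permutation p = 1). This ratio was added after the data had been seen.

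**Figure D1:**
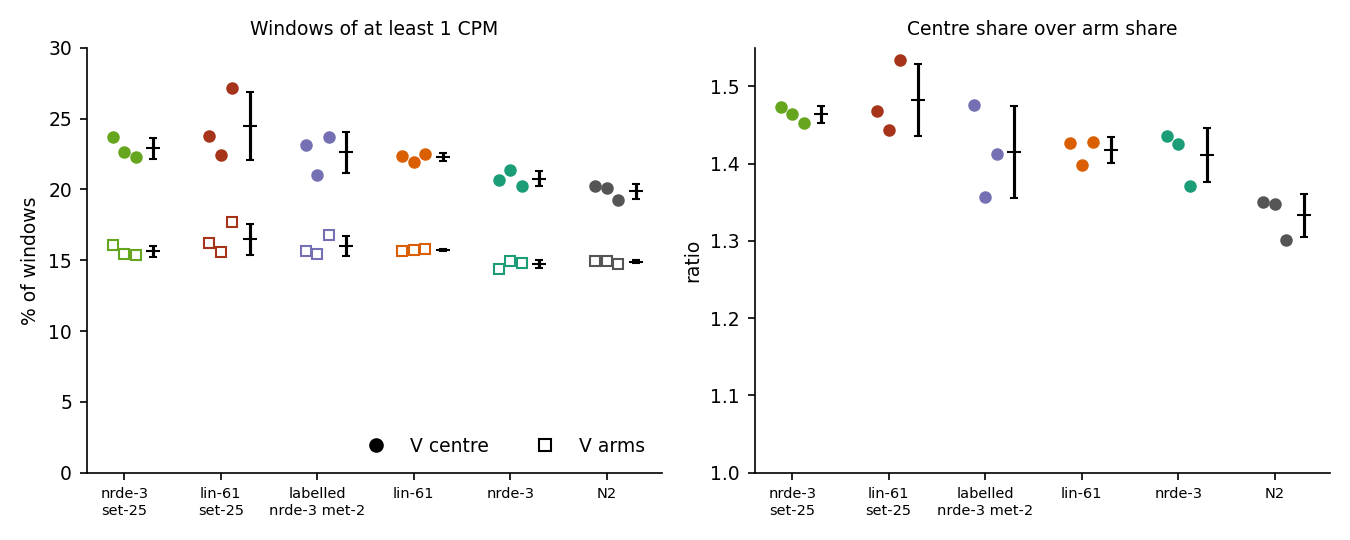
Share of windows with at least 1 CPM in the centre and the arms of chromosome V (left, percent) and the ratio of these shares (right, axis from 1). Points are the 3 libraries of each genotype, and bars are the mean and SD; the N2 ratio of 1.33 lies below the others, and the nrde-3 set-25 ratio of 1.46 above that of nrde-3.

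In lin-61 embryos a broad set of windows of the centre was raised, in a comparison of libraries that share the prefix 875. Of the 8713 windows that passed the minimum read number, 1308 were called higher and 134 lower in lin-61 against N2 (edgeR quasi-likelihood test, Benjamini-Hochberg adjusted p below 0.05 over 96133 windows). This was 15.01% of the tested windows of the centre higher, against a background of 9.88% over the genome, 9.70% in the arms of chromosome V and 9.34% on the other chromosomes. The lower calls were 1.54%, against a background of 1.74%. The minimum was passed by 40.9% of the windows of the centre and 47.9% of all windows. Of the tested windows, 1042 passed it in all 3 libraries of 1 genotype alone, though single libraries of other genotypes could pass too. In these windows the filter favoured that genotype, and 17 of the 1308 were of this kind through lin-61. The raised windows were weakly transcribed: their median level was 1.60 CPM in lin-61, against 0.308 in N2, and their median log2 fold change was 2.11, against 0.09 over all tested windows of the centre and -0.04 over all tested windows. The lowered windows were stronger in N2, with medians of 5.01 CPM in lin-61, against 9.56 in N2.

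With the tested windows kept the same, the higher count was 835 and 768 when lin-61 a or c was dropped and 572 when N2 c was dropped. The share called higher over all tested windows of the genome was then 6.06, 5.63 and 4.20%, so it fell too. A fit of the 6 libraries alone, which also tests other windows, called 1996, and 18.1% of all its tested windows. The lower count was less stable: it was 15 to 94 when 1 library was dropped, with 29, 71 and 15 for lin-61 a, b and c and 42 and 19 for N2 a and c, and it was 299 with DESeq2, 321 without the libraries labelled nrde-3 met-2 and 572 in the fit of the 6 libraries. Over all tested windows the lower share was 0.434, 0.933, 0.289, 0.655 and 0.259% for these 5 libraries dropped. For the last 3 fits it was 3.38, 4.16 and 7.02%.

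The raised windows lay next to each other. They joined into 391 regions when gaps of at most 1 window were bridged, and 57.8% of them lay in the 83 regions of 5 or more windows. The largest concentration was a block of 90 kb at V 6114001 to 6204000, which starts 217 kb inside the left bound of the centre and was marked out after the data had been seen, from the longest regions of all comparisons. Of its 159 tested windows, 124 (78.0%) were called higher in lin-61, with a median log2 fold change of 2.38. Outside the block 1184 of 8554 tested windows (13.8%) were called higher, which is still above the background.

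Summed over the block, the 3 libraries of lin-61 reached 412, 354 and 522 CPM, and those of N2 209, 202 and 179 CPM, with no overlap. In lin-61 set-25 the sums were 731, 367 and 1389 CPM, a spread that overlapped lin-61. In lin-61 set-25 against lin-61, 80 of the 159 windows (50.3%) were called higher, against 16.9% of the tested windows outside the block. The nrde-3 set-25 libraries summed to 440, 316 and 324 CPM, the libraries labelled nrde-3 met-2 to 273, 334 and 272 CPM, and the nrde-3 libraries to 156, 215 and 192 CPM. Both of these doubles lay above every nrde-3 library. In nrde-3 set-25 against nrde-3, 20 windows (12.6%) were called higher, against 3.16% outside the block. In the libraries labelled nrde-3 met-2 against nrde-3 it was 16 (10.1%), near the 8.57% outside. In nrde-3 against N2 the libraries overlapped and 2 windows (1.26%) were called higher, against 4.20% outside.

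The longest region raised in lin-61, V 6164501 to 6190000, lies in this block and spans 25.5 kb, 48 of whose 51 windows were called. Its sum was 133, 119 and 194 CPM in lin-61, against 26.3, 32.1 and 10.7 in N2, a ratio of means of 6.48. It was 118, 68.4 and 71.2 CPM in nrde-3 set-25, while lin-61 set-25 had 241, 112 and 491 CPM. The libraries labelled nrde-3 met-2 summed to 77.5, 164 and 85.1 CPM, against 11.8, 30.8 and 23.1 in nrde-3. The nrde-3 and N2 libraries lay together at the bottom and every library of the other 4 genotypes lay above them. The next 2 longest regions, V 6144501 to 6161000 with all 33 windows called and V 6191001 to 6204000 with 25 of 26, averaged 47.6 ± 15.4 and 115 ± 25.6 CPM in lin-61, and 8.48 ± 3.74 and 23.2 ± 10.6 CPM in N2.

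**Figure D2:**
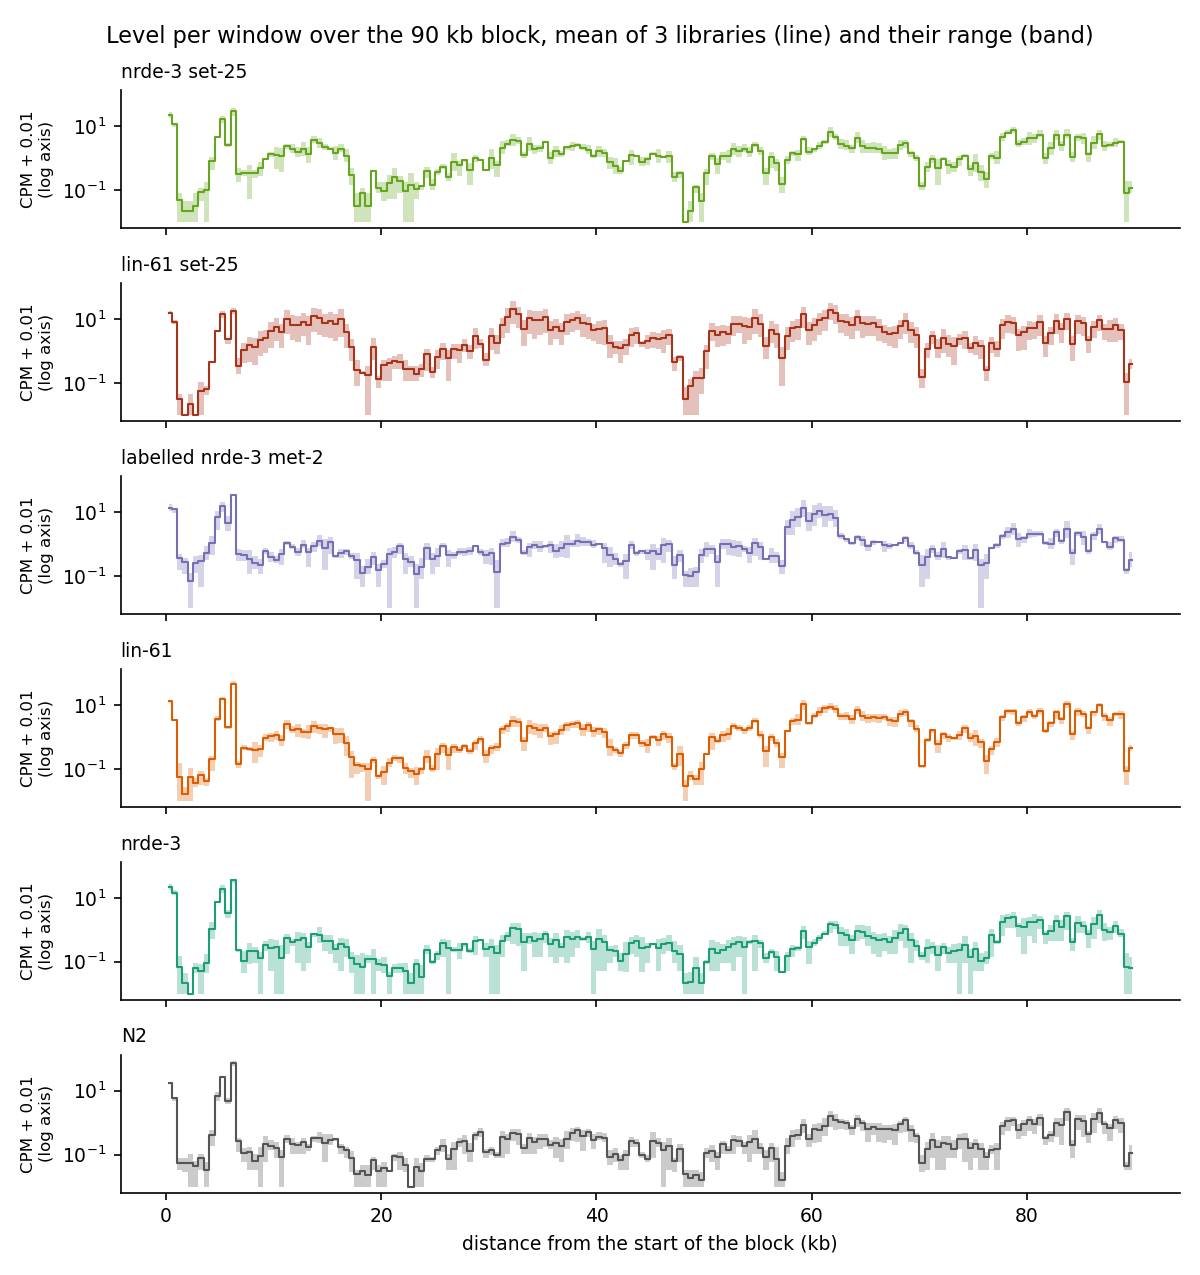
Level of each 500 bp window (CPM + 0.01, log axis) over the 90 kb block at V 6114001 to 6204000, against the distance from its start (kb), for nrde-3 set-25, lin-61 set-25, the libraries labelled nrde-3 met-2, lin-61, nrde-3 and N2. Lines are means of 3 libraries and bands their range; the highest peak, 6 kb from the start, averages 29.7 CPM in nrde-3 set-25, 18.2 in lin-61 set-25, 33.8 in the libraries labelled nrde-3 met-2, 46.4 in lin-61, 36.6 in nrde-3 and 72.2 in N2, and beyond it the means of the doubles and of lin-61 lie above those of nrde-3 and N2 along most of the length.

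The rate of higher calls in lin-61 differed along the centre. It was 24.6% in the first Mb, which holds the 90 kb block. It was between 12.4 and 19.8% in the next 7 Mb, and 6.01, 8.33 and 6.55% in the last 3 bins. In the 500 kb inside the left bound 31.9% of 543 tested windows were called higher, against 11.4% of 448 in the 500 kb outside. The inner stretch holds the block, where 124 of 159 tested windows were called. Between the bound and the block, the bins at V 5897001 to 5997000 and V 5997001 to 6097000 had 11.4 and 12.5%. The bin at V 6197001 to 6297000, with the end of the block, had 24 of 109, and V 6297001 to 6397000 had 11 of 69. These rates thus show no change at the left bound itself. At the right bound the rates were 8.26% of 218 inside and 7.58% of 198 outside. After the bin at V 6097001 to 6197000, with 115 of 173 tested windows called, the next 100 kb bins by rate were V 8797001 to 8897000 with 52 of 96 and V 9097001 to 9197000 with 35 of 87.

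**Figure D3:**
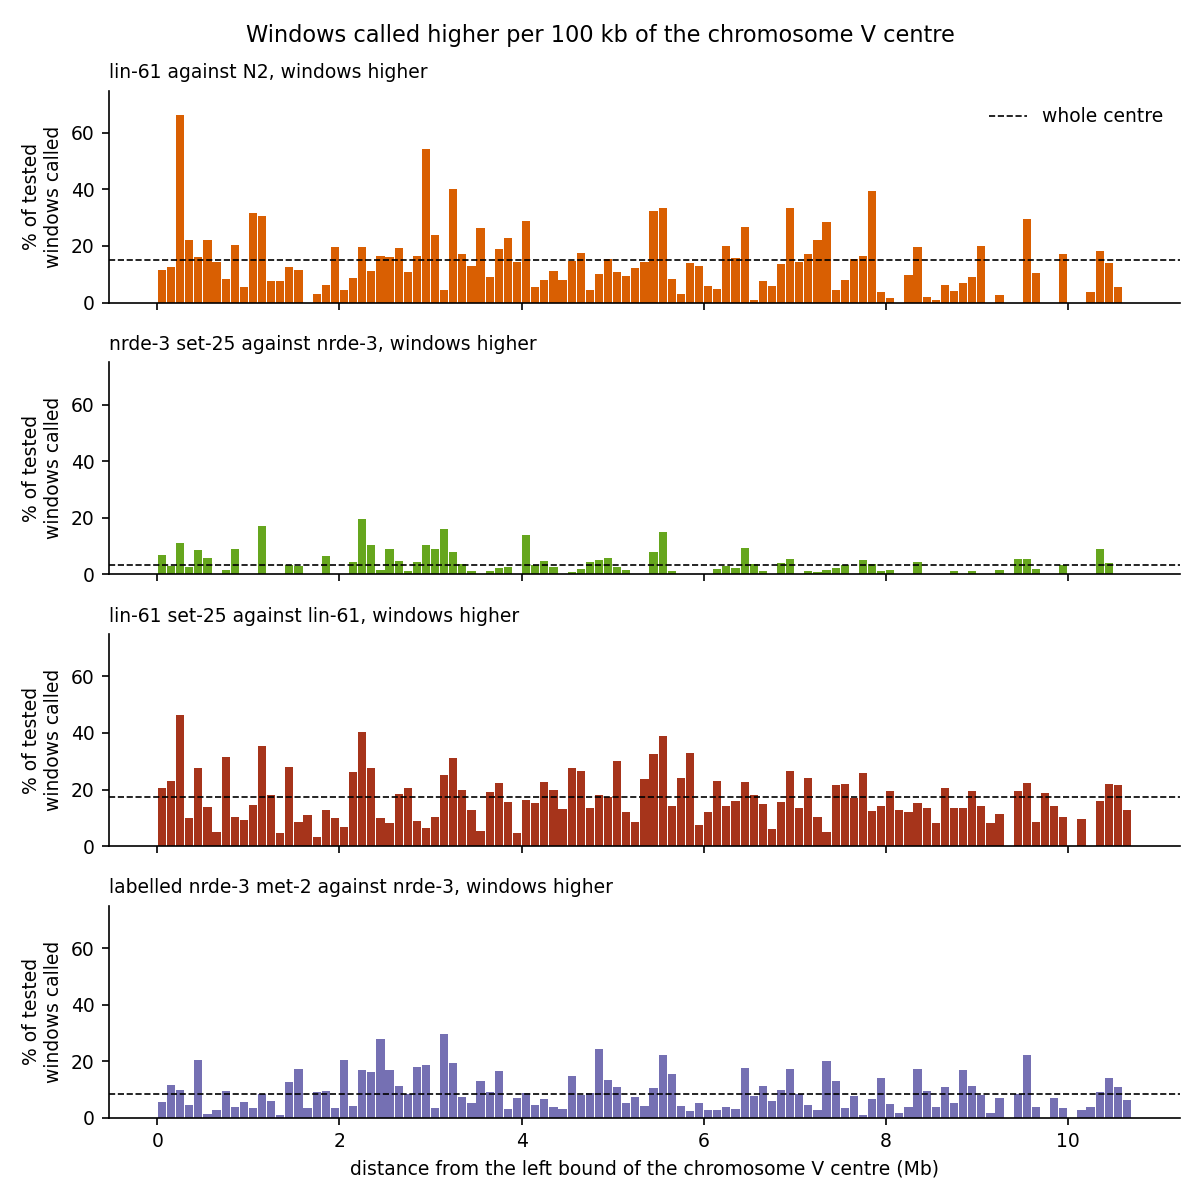
Percent of tested windows called higher (edgeR, adjusted p below 0.05) in bins of 100 kb along the chromosome V centre, against the distance from its left bound (Mb), for lin-61 against N2, nrde-3 set-25 against nrde-3, lin-61 set-25 against lin-61, and the libraries labelled nrde-3 met-2 against nrde-3. Dashed lines are the rate over the whole centre (15.01% in the top panel), and bins with under 20 tested windows are left blank; the highest bar of the top panel, near the left end, is 66.5%.

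Some windows were high in lin-61 and low in every other genotype. The window V 8872001 to 8872500, in a raised region of 4 kb, had 5.11, 5.57 and 5.66 CPM in lin-61, against 0.037, 0 and 0 in N2, with 864 reads against 2 (log2 fold change 8.27 ± 0.52 SE, edgeR adjusted p = 1.2e-09). The pooled ratio of 384 has a 95% interval of 106 to 3178, which covers counting error only. The same window had 0.31, 0.454 and 0.402 CPM in nrde-3 set-25, while lin-61 set-25 had 0.896, 0.697 and 0.808 CPM. The libraries labelled nrde-3 met-2 had 0.299, 0.598 and 0.8 CPM, against 0.0422, 0.0348 and 0 in nrde-3. The lin-61 set-25 libraries, which carry the same lin-61 allele, were thus far below lin-61.

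The window V 8830501 to 8831000 behaved alike. It passed the minimum in all 3 libraries of lin-61 and of no other genotype, though lin-61 set-25 a and b passed too. The filter thus favoured lin-61 there, and the values of this window are a description. It had 5.13, 6.28 and 5.54 CPM in lin-61, against 0.0185, 0.0673 and 0.071 in N2 (log2 fold change 6.72 ± 0.48). It had 0.463, 0.404 and 0.162 CPM in lin-61 set-25 (log2 fold change against lin-61 -4.03 ± 0.39). V 8828001 to 8828500, in the neighbouring stretch, had 10.7, 9.84 and 8.96 CPM in lin-61, 1.51, 1.28 and 0.905 in lin-61 set-25, against 0.203, 0.0673 and 0.118 in N2. The lin-61 set-25 libraries differ from lin-61 in prefix as well as in set-25, and in nrde-3 set-25 against nrde-3, where the prefix does not differ, V 8830501 went the other way, with 0.241, 0.105 and 0.179 CPM in nrde-3 set-25 and 0 reads in nrde-3 (fitted log2 fold change 5.65, which depends on the prior count).

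Other windows raised in lin-61 were raised further in lin-61 set-25. V 13411001 to 13411500 had 12.6, 3.34 and 21.7 CPM in lin-61 set-25, 1.44, 0.644 and 1.87 in lin-61, against 0.0185, 0 and 0 in N2. V 13415501 to 13416000 had 63, 18.2 and 95.2 CPM in lin-61 set-25, 10.4, 4.51 and 10.5 in lin-61, against 0.0924, 0.224 and 0.0237 in N2. It had 23.3, 11.8 and 15.9 CPM in nrde-3 set-25, against 0.887, 2.05 and 0.812 in nrde-3. The order of lin-61 set-25, lin-61 and N2 held for every library of both windows. V 12378001 to 12378500 had 2.75, 1.27 and 3.02 CPM in lin-61, against 0.037, 0.0224 and 0.0237 in N2, and V 10787001 to 10787500 had 1.42, 1.01 and 1.23 CPM in lin-61, against 0.037, 0.0448 and 0 in N2. All 6 of the highest windows by the naming rule kept their call in lin-61 against N2 under every alternative run. These windows were picked by their fold changes in the same data. The filter also favoured lin-61 at any window that passed the minimum through lin-61 alone, as described above. The kept calls are thus a description and no separate support.

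The strongest of the windows lowered in lin-61 that rested on many reads was V 7761001 to 7761500. It had 1.04, 0.885 and 1.09 CPM in lin-61, against 5.93, 6.86 and 9.28 in N2 (log2 fold change -2.86 ± 0.28, adjusted p = 1.9e-06), and 2.07, 1.6 and 1.86 CPM in nrde-3, between them. V 8582001 to 8582500 had 1.98, 2.09 and 2.05 CPM in lin-61, against 5.17, 5.36 and 5.61 in N2. The longest lowered region, V 14420501 to 14423500, summed to 200, 215 and 211 CPM in lin-61, against 340, 314 and 366 in N2. The lowered windows were scattered, in 92 regions of which 1 had 5 or more windows, and 3 of the 6 named kept their call under every alternative run. The named windows were picked by their fold changes in the same data, so the kept calls are a description.

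In nrde-3 embryos fewer windows were raised and more were lowered. In nrde-3 against N2, 361 windows were called higher and 573 lower. This is 4.14% higher, against a background of 3.4%, and 6.58% lower, against a background of 7.69%, so both shares were near the background. The raised windows were at a median level of 1.56 CPM in nrde-3, against 0.544 in N2, and the lowered ones 7.77 CPM against 17.7 CPM. This pair crosses the prefix. A prefix term was therefore added, set by how far lin-61 set-25 against lin-61 departs from nrde-3 set-25 against nrde-3. It takes set-25 to act alike on both backgrounds, which was not tested, and the nrde-3 libraries cancel out of the resulting contrast. That contrast called 136 windows higher, 36 of them among the 361, and 5 lower, 1 of them among the 573. Over all tested windows it called 1.02% higher and 0.174% lower. With the tested windows kept the same, the higher count was 160 when nrde-3 b was dropped and 230, 193 and 108 when N2 a, b or c was dropped, and the lower count was 365 when N2 c was dropped. Over all tested windows the shares were, in the same order, 1.64, 2.1, 1.81 and 1.155% higher and 4.75% lower.

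3 stretches were high in every genotype that carries the nrde-3 allele, whatever its other mutation, while lin-61 set-25, of the same prefix, was on the low side with lin-61 and N2. V 6038501 to 6044000 is 5.5 kb long, with all 11 windows called higher in nrde-3 set-25 against lin-61 set-25. This stretch summed to 174, 227 and 244 CPM in nrde-3 set-25, against 80.4, 86.9 and 48.3 in lin-61 set-25. It summed to 260, 217 and 169 CPM in the libraries labelled nrde-3 met-2 and to 212, 197 and 237 CPM in nrde-3, against 36.3, 48 and 39.2 in lin-61 and 40.8, 49.6 and 58.9 CPM in N2. Every library with the nrde-3 allele lay above every library without it. Within it, V 6042001 to 6042500 had 3.42, 5.81 and 5.03 CPM in nrde-3, against 0.517, 0.314 and 0.757 in N2 (log2 fold change 3.17 ± 0.34, edgeR adjusted p = 4.6e-06).

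The second of these stretches, V 13555001 to 13558000, is 3 kb long, with all 6 windows called higher in nrde-3 set-25 against lin-61 set-25. This stretch summed to 42.1, 47.9 and 50.6 CPM in nrde-3 set-25, against 11, 10.7 and 12.5 in lin-61 set-25. It summed to 49.6, 40 and 34.2 CPM in nrde-3, against 14.5, 17.4 and 16.2 in N2. In it, V 13556501 to 13557000 had the highest log2 fold change of nrde-3 set-25 against lin-61 set-25, 2.94 ± 0.34 (adjusted p = 5.6e-05), with 3.72, 3.77 and 3.21 CPM against 0.34, 0.367 and 0.679 CPM. The last of them, V 15357501 to 15361000 (3.5 kb), summed to 23.5, 26.1 and 30.9 CPM in nrde-3 set-25, against 10.7, 13.2 and 7.92 in lin-61 set-25, and to 33.2, 28.3 and 34.1 CPM in nrde-3, against 17, 17.9 and 21.9 in N2. In lin-61 it summed to 9.68, 11.4 and 9.44 CPM, below every N2 library. Most of it, V 15357501 to 15360500, was also a region called lower in lin-61 against N2, so the doubles differ there in the direction of both singles. Again no library with the nrde-3 allele overlapped one without it.

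Most windows lowered in nrde-3 against N2 were also called lower in lin-61 set-25 against lin-61. V 14112001 to 14112500 had 1.27, 2.58 and 1.62 CPM in nrde-3, against 17.4, 14.8 and 17.5 in N2 (log2 fold change -3.17 ± 0.28, adjusted p = 3.9e-07). It had 1.61, 0.954 and 1.1 CPM in lin-61 set-25, against 24, 33 and 29.8 in lin-61 (log2 fold change -4.56 ± 0.29, adjusted p = 3.2e-09). V 13965001 to 13965500 had 3.89, 5.74 and 5.8 CPM in nrde-3, against 36, 26.4 and 39.5 in N2, and 3.55, 2.82 and 1.52 CPM in lin-61 set-25, against 24.4, 42.7 and 32.6 in lin-61. The longest lowered region, V 13784501 to 13794500 (10 kb), summed to 87.9, 108 and 125 CPM in nrde-3, against 202, 189 and 213 in N2. Of the 573 windows lower in nrde-3 against N2, 468 (81.7% of them, and 50.3% of the 930 on the other side) were also lower in lin-61 set-25 against lin-61, where 10.7% of all tested windows of the centre were. The pairs share no library but cross the prefix in the same direction, so allele and prefix cannot be told apart in this overlap.

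In nrde-3 set-25 embryos few windows were called relative to nrde-3, and most of those were raised. At an unadjusted edgeR p below 0.05, 1454 of 8713 tested windows of the centre were higher and 395 lower. On the other chromosomes 8556 of 80874 were higher and 4487 lower, and in the arms of chromosome V 879 of 6546 and 327. Windows without a change also pass this level, but few calls need not mean few changes. In nrde-3 set-25 against nrde-3, both of prefix 1121, 290 windows were called higher and 9 lower. This is 3.33% higher, against a background of 1.91%, with 3.16% in the arms of chromosome V, and 0.103% lower, against a background of 0.148%. The median of the raised windows was 1.52 CPM in nrde-3 set-25, against 0.252 in nrde-3, with a median log2 fold change of 2.40, against 0.13 over the tested windows of the centre. The higher count depended on single libraries: with the tested windows kept the same, it was 65, 178 and 138 when nrde-3 set-25 a, b or c was dropped, and 89, 118 and 36 when nrde-3 a, b or c was dropped. The share over all tested windows fell too, in the same order to 0.44, 1.18, 0.894, 0.62, 0.78 and 0.229%. A fit of these 6 libraries alone, which also tests other windows, called 566, and 4.68% of all its tested windows.

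The raised windows of nrde-3 set-25 were largely windows that lin-61 also raised. Of the 290, 218 (75.2%) were also called higher in lin-61 against N2, a pair with which they share no library, and 0 were called lower; these 218 are 16.7% of the 1308 windows higher in lin-61. Over all tested windows of the centre 15.01% were higher in lin-61. The 290 windows had a median log2 fold change of 2.63 in lin-61 against N2, against 0.09 over the tested windows, and 287 of them were positive. In the other direction, 1281 of the 1308 windows higher in lin-61 had a positive log2 fold change in nrde-3 set-25 against nrde-3, with a median of 1.25 against 0.13 over the tested windows.

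**Figure D4:**
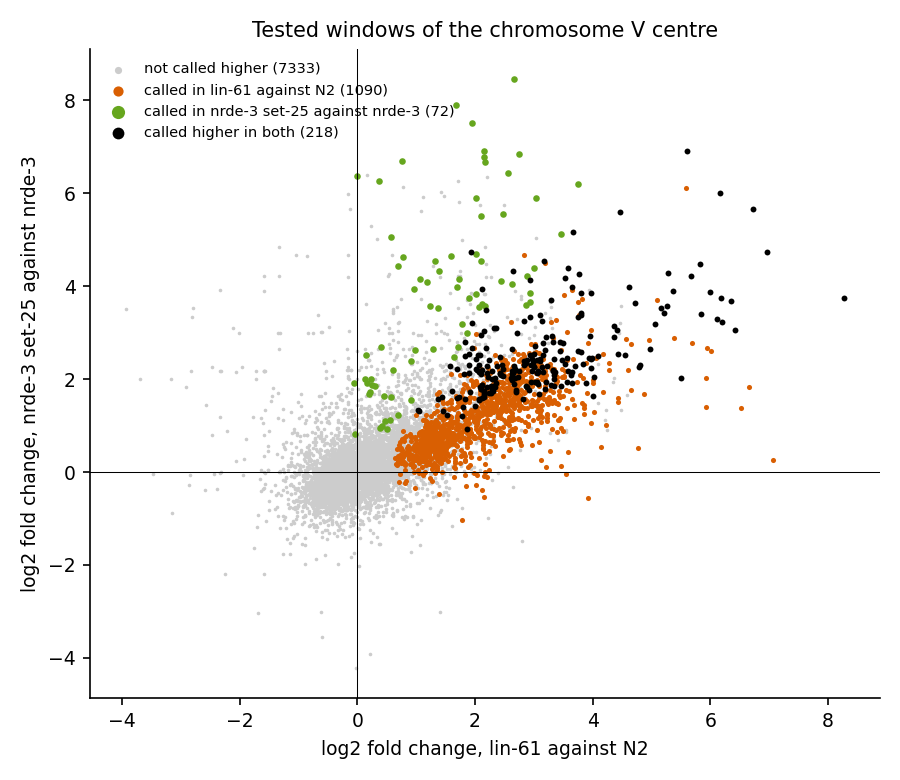
log2 fold change of each tested window of the chromosome V centre in nrde-3 set-25 against nrde-3 (vertical) and in lin-61 against N2 (horizontal), comparisons that share no library. Black points are the 218 windows called higher in both, green points the 72 called higher only on the vertical axis, and orange points the 1090 called higher only on the horizontal axis.

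The longest region raised in nrde-3 set-25 against nrde-3, V 7075501 to 7081000 (5.5 kb, all 11 windows called), shows this pattern. It summed to 177, 121 and 131 CPM in nrde-3 set-25, against 34.4, 50.4 and 41 in nrde-3. It summed to 272, 157 and 529 CPM in lin-61 set-25, 120, 85 and 130 in lin-61, against 27.5, 32.5 and 13.2 in N2. V 6763501 to 6768500 was alike, with 118, 68.3 and 81.3 CPM in nrde-3 set-25, against 21.7, 31.4 and 21.8 in nrde-3. There lin-61 had 94.3, 69.1 and 97.4 CPM, against 15.7, 19.6 and 5.33 in N2. In both, each lin-61, nrde-3 set-25 and lin-61 set-25 library lay above each nrde-3 and N2 library.

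A smaller set was near empty in nrde-3, in lin-61 and in N2 and was read in both set-25 doubles. V 12404001 to 12404500 had 3.76, 1.96 and 3.21 CPM in nrde-3 set-25, against 0, 0 and 0.0387 in nrde-3 (log2 fold change 7.51 ± 1.07, adjusted p = 0.00087). It had 13.9, 4.62 and 45.1 CPM in lin-61 set-25, against 0.0384, 0 and 0.0706 in lin-61 (log2 fold change 9.01 ± 0.79, adjusted p = 1e-07). The libraries labelled nrde-3 met-2 had 1.08, 0.844 and 0.933 CPM, and those of N2 had 0, 0 and 0.0237 CPM. V 9159501 to 9160000 had 1.1, 0.769 and 0.625 CPM in nrde-3 set-25 and 0 reads in nrde-3, at least 22.2-fold higher against a floor of 3 reads over the group, and 5.5, 2.2 and 17.4 CPM in lin-61 set-25, against 0.115, 0.0201 and 0.0882 in lin-61. V 12402501 to 12403000 had 1.48, 0.978 and 1.29 CPM in nrde-3 set-25 and 0 reads in nrde-3, at least 32.6-fold higher. V 9164501 to 9165000 had 2.28, 1.61 and 1.25 CPM in nrde-3 set-25, against 0.0422, 0.0348 and 0 in nrde-3. In each of these windows the 3 libraries of both doubles lay above every nrde-3, lin-61 and N2 library.

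Such windows were rare. Of the 9052 windows of the centre with at most 3 reads over the N2 libraries, 8 had at least 1 CPM in all 3 libraries of nrde-3 set-25, 21 in lin-61 set-25, 3 in the libraries labelled nrde-3 met-2, 2 in lin-61 and 0 in nrde-3. The share was 0.088% in nrde-3 set-25, against 0.067% in the arms of chromosome V and 0.037% on the other chromosomes. In the same order it was 0.232, 0.078 and 0.122% in lin-61 set-25, and 0.022, 0.033 and 0.0023% in lin-61. In the libraries labelled nrde-3 met-2 it was 0.033, 0.078 and 0.0701%.

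The lowered windows of nrde-3 set-25 against nrde-3 were single windows with modest changes. V 7602501 to 7603000 had 0.103, 0.349 and 0.536 CPM in nrde-3 set-25, against 1.35, 1.04 and 0.89 in nrde-3 (log2 fold change -1.77 ± 0.43, adjusted p = 0.034), and 0.278, 0.514 and 0.226 CPM in lin-61 set-25, against 1.29, 1.63 and 1.22 in lin-61. Under the alternatives, 0 of the 6 named kept their call throughout.

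The largest number of called windows was found in lin-61 set-25 relative to lin-61. In lin-61 set-25 against lin-61, 1524 windows were called higher and 930 lower. This is 17.5% higher, against a background of 12.8%, with 12.5% in the arms of chromosome V, and 10.7% lower, against a background of 12.9%. The median of the raised windows was 1.51 CPM in lin-61 set-25, against 0.406 in lin-61. The pair crosses the prefix. In the model with a prefix term its contrast is by construction that of nrde-3 set-25 against nrde-3, with the same 290 higher and 9 lower windows, of which 166 and 2 are among the 1524 and 930. Replicate c of lin-61 set-25 was the highest of its 3 libraries in 1178 (77.3%) of the 1524 windows, and the count was 764 when it was dropped and 887 when lin-61 b was dropped, with the tested windows kept the same. The share over all tested windows was then 7.33 and 7.29%. Of the 1524 windows, 200 passed the minimum in all 3 libraries of lin-61 set-25 and of no other genotype, so the filter favoured lin-61 set-25 there.

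The longest region, V 6141001 to 6161500 (20.5 kb, 39 of 41 windows called), lies in the block described above. It summed to 178, 80.2 and 376 CPM in lin-61 set-25, against 51.2, 34.8 and 67.4 in lin-61, and the lowest lin-61 set-25 library was above the highest lin-61 library. V 6121001 to 6131500 (10.5 kb, all 21 windows called) summed to 96.8, 38.3 and 234 CPM in lin-61 set-25, 25.8, 16.1 and 34.4 in lin-61, against 4.29, 4.98 and 2.27 in N2. It summed to 44.7, 25.1 and 23.8 CPM in nrde-3 set-25, against 3.13, 10.5 and 7.66 in nrde-3. V 11740501 to 11752500 (12 kb) summed to 66.2, 32.9 and 162 CPM in lin-61 set-25, 29.7, 24.9 and 32.4 in lin-61, against 11.3, 12.2 and 7.67 in N2. In all 3 regions replicate c was the highest and replicate b the lowest of the lin-61 set-25 libraries.

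V 8113001 to 8117500 (4.5 kb, all 9 windows called in nrde-3 set-25 against nrde-3) was highest in the doubles. It summed to 18.9, 8.63 and 12.8 CPM in nrde-3 set-25, against 0.338, 0.87 and 0.89 in nrde-3, a ratio of means of 19.2. It summed to 52.3, 22.5 and 105 CPM in lin-61 set-25, against 2.82, 1.25 and 2.49 in lin-61, to 6.46, 3.1 and 5.7 CPM in the libraries labelled nrde-3 met-2, and to 0.333, 0.404 and 0.734 CPM in N2. Every library of the 3 doubles lay above every library of lin-61, nrde-3 and N2. Among single windows, V 5985501 to 5986000 had 5.56, 1.76 and 16.9 CPM in lin-61 set-25, against 0.096, 0.0201 and 0.123 in lin-61, and V 10117001 to 10117500 had 5.37, 1.54 and 15 CPM in lin-61 set-25, against 0.365, 0.121 and 0.159 in lin-61.

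**Figure D5:**
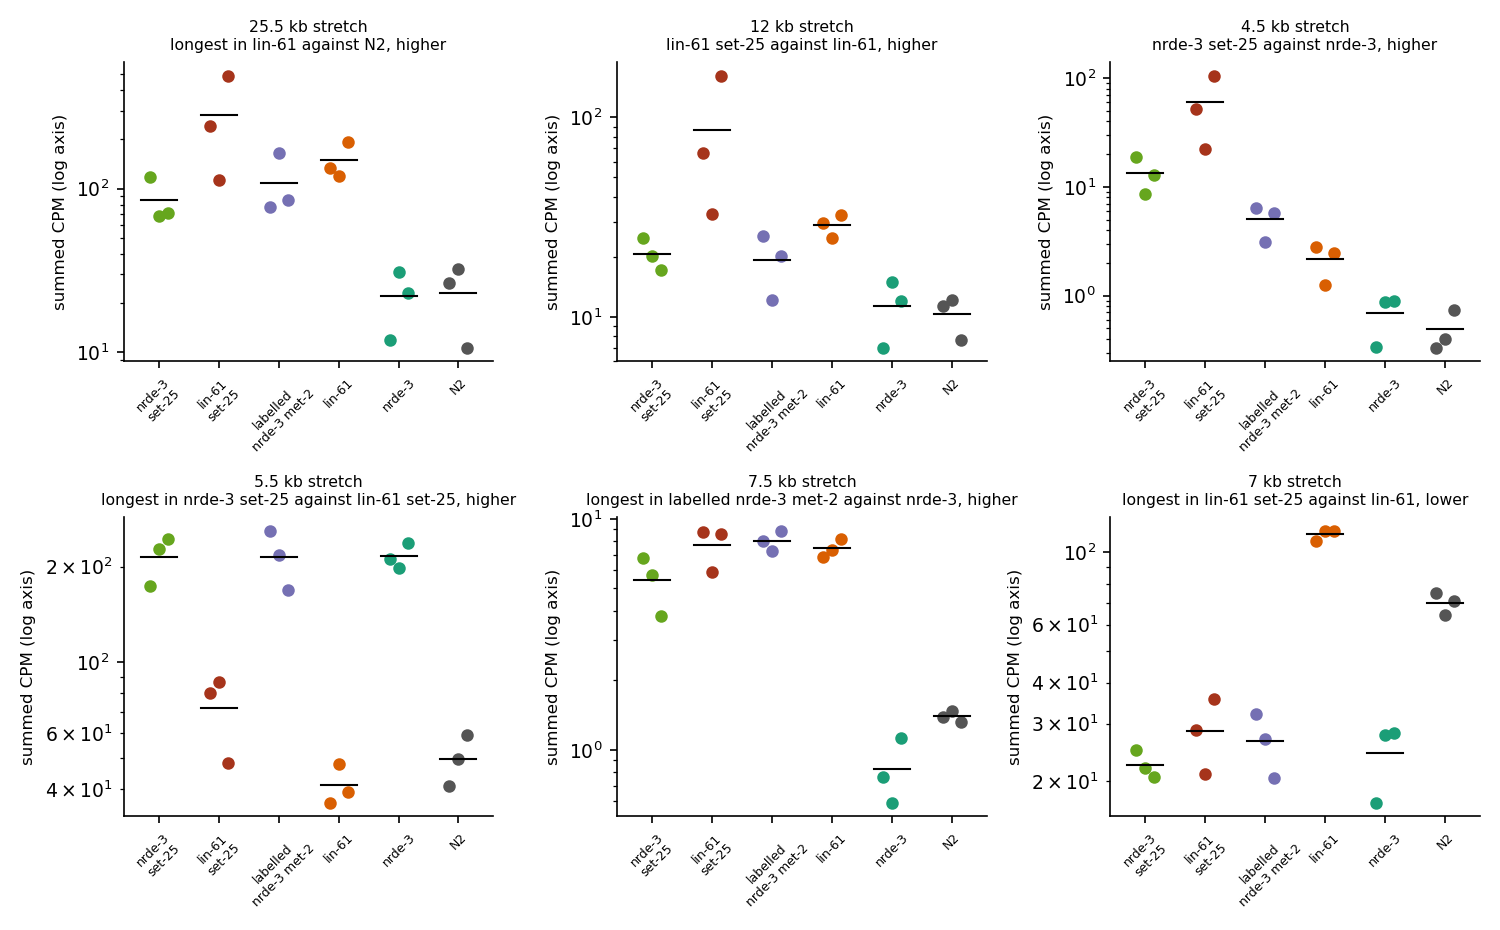
Summed CPM (log axes) per library over 6 stretches of the chromosome V centre, with a black line at the mean of the 3 libraries: V 6164501 to 6190000, V 11740501 to 11752500 and V 8113001 to 8117500 (top, left to right), and V 6038501 to 6044000, V 8477501 to 8485000 and V 14112001 to 14119000 (bottom). Panel titles name the comparison and direction in which the stretch was called; the 5.5 kb stretch is high in the 3 genotypes with the nrde-3 allele, and the 7 kb stretch is high in lin-61 and N2.

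The longest lowered region, V 14112001 to 14119000 (7 kb), summed to 28.7, 21 and 35.7 CPM in lin-61 set-25, against 108, 116 and 116 in lin-61, and to 24.9, 22 and 20.6 CPM in nrde-3 set-25, 17.2, 27.7 and 28.1 in nrde-3, against 74.8, 64.3 and 71 in N2. The libraries split by prefix without overlap. V 8039501 to 8040000 had 13.1, 7.85 and 10.5 CPM in lin-61 set-25, against 99.6, 119 and 116 in lin-61, and it had 16.5, 18.8 and 10.9 CPM in nrde-3, against 108, 86.3 and 77.4 in N2. Under the alternatives, 0 of the 6 named lowered windows kept their call throughout.

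The direct comparison of the doubles, nrde-3 set-25 against lin-61 set-25, lies within prefix 1121. It called 58 windows higher and 171 lower, 0.666% against a background of 0.465% higher, and 1.96% against a background of 1.34% lower. Of the 171 lower windows, 88 (51.5%) were higher in lin-61 against N2, which shares no library with this pair, against 15.01% of the tested windows of the centre; these 88 are 6.73% of the 1308. Of the 58 higher windows, 28 (48.3%) were higher in nrde-3 against N2, against 4.14% of the tested windows; these are 7.76% of the 361. The higher regions were led by the 3 stretches of the nrde-3 allele described above. The lower regions were led by V 11741501 to 11751000, with 22.7, 18.8 and 16 CPM in nrde-3 set-25, against 62.7, 30.2 and 151 in lin-61 set-25, and V 8111501 to 8117500, with 20.7, 10.1 and 13.9 CPM in nrde-3 set-25, against 57.8, 25.1 and 118 in lin-61 set-25.

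Both counts depended on single libraries. Replicate c of lin-61 set-25 was the highest of its group in 162 of the 171 lower windows. With the tested windows kept the same, the lower count was 18 when that library was dropped, 623 when lin-61 set-25 b was dropped, and 91, 18 and 21 when nrde-3 set-25 a, b or c was dropped. Over all tested windows the lower share was, in the same order, 0.280, 4.81, 0.771, 0.248 and 0.277%. The higher count was 24 and 18 when nrde-3 set-25 b or c was dropped, and 96 and 24 when lin-61 set-25 b or c was dropped. Of the 171 windows, 32 passed the minimum in all 3 libraries of lin-61 set-25 and of no other genotype. A fit of these 6 libraries alone, which also tests other windows, called 12 higher and 5 lower. Of all its tested windows it called 0.0812% higher and 0.118% lower.

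The libraries labelled nrde-3 met-2 differed from nrde-3 mainly in windows of low level. In the comparison with nrde-3, 749 windows were called higher and 25 lower, 8.60% against a background of 6.02% higher and 0.287% against a background of 0.466% lower, with 9.15% higher in the arms of chromosome V. The median of the raised windows was 0.6 CPM in the libraries labelled nrde-3 met-2, against 0.0605 in nrde-3. By library it was 0.635, 0.422 and 0.7 CPM in replicates a, b and c, whose mean level in the near-empty windows given above was 0.186, 0.0922 and 0.329 CPM. With the genome-wide background subtracted 208 windows were called higher, all among the 749, and 13 lower, 0 of them among the 25. Of all its tested windows this fit called 2.015% higher and 0.461% lower. The minimum was passed in all 3 libraries labelled nrde-3 met-2, and in all 3 of no other genotype, by 502 tested windows. Of the 749, 288 (38.5%) are among these, where the filter favoured the libraries labelled nrde-3 met-2. Without a filter 7803 windows were called higher, and 360 in a fit of the 6 libraries alone. Of all their tested windows these fits called 24.7 and 3.715% higher. With the tested windows kept the same, the count was 480 and 462 when nrde-3 met-2 a or c was dropped and 419, 429 and 358 when nrde-3 a, b or c was dropped, but 3120 without nrde-3 met-2 b where the filter was set anew. The share over all tested windows was, in the same order, 4.09, 4.02, 3.64, 3.63, 3.20 and 18.2%. Of the 749 windows, 143 (19.1%, and 10.9% of the 1308) were also higher in lin-61 against N2, against 15.01% of the tested windows.

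The longest raised region, V 8477501 to 8485000 (7.5 kb, 13 of 15 windows called), summed over its 15 windows to 7.99, 7.28 and 8.9 CPM in the libraries labelled nrde-3 met-2, against 0.76, 0.592 and 1.12 in nrde-3. The other doubles and lin-61 also lay above nrde-3 and N2, with 6.79, 5.73 and 3.8 CPM in nrde-3 set-25, 8.74, 5.91 and 8.59 in lin-61 set-25, and 6.82, 7.3 and 8.22 CPM in lin-61, against 1.39, 1.48 and 1.33 CPM in N2. The nrde-3 and N2 libraries were the 6 lowest.

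Some single windows were far higher in the libraries labelled nrde-3 met-2 than in nrde-3. V 11274001 to 11274500 had 7.95, 8.62 and 7.66 CPM in them, against 0.0422, 0 and 0 in nrde-3 (log2 fold change 8.95 ± 0.62), and at most 0.241 CPM in any other library. It passed the minimum through these libraries alone, so its values are a description. V 14755501 to 14756000 had 6.98, 4.12 and 6.5 CPM in them, against 0, 0 and 0.0387 in nrde-3. V 14769501 to 14770000 had 7.88, 8.13 and 8.96 CPM in them, against 0, 0.0348 and 0.0387 in nrde-3. V 10450001 to 10450500 had 7.84, 5.1 and 6 CPM in them, against 0, 0.0696 and 0.0387 in nrde-3. V 12510001 to 12510500 varied more among them, with 58.7, 4.61 and 36.2 CPM, against 0.169, 0.174 and 0.193 in nrde-3 and 0.333, 0.628 and 1.63 in N2. All 6 named raised windows kept their call under every alternative run. They were picked by their fold changes in the same data, and the filter favoured these libraries at V 11274001. The kept calls are thus a description and no separate support. The lower calls were 25 single windows, among them V 14037001 to 14037500 with 9.67, 11.4 and 19.9 CPM against 29.9, 25.7 and 26.6 CPM in nrde-3 (log2 fold change -1.01 ± 0.24, adjusted p = 0.015).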

How the data were processed

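The authors deposited raw read counts per 500 bp window over chromosomes I to V and X, with reads processed on build ce10 per the submitters' processing notes. The aligner, the counting tool and the treatment of reads with several matches are not given in the sources used here, and reads from near-identical copies could be split or lost. Columns were matched to genotypes by name; 6 further columns of per-sample values were not used. Counts of the 18 libraries were fitted with edgeR 4.0.16 in R 4.3.3 (TMM scaling; filterByExpr grouped by genotype, minimum count 10; glmQLFit, glmQLFTest; 1 coefficient per genotype, 12 residual degrees of freedom), over all 96133 windows that passed. CPM values use the TMM-scaled library sizes, which ran from 0.748 to 1.26 times the total. Called windows of 1 direction were joined across gaps of at most 1 window. The naming rule took, per comparison, the 6 highest and 6 lowest log2 fold changes of called windows whose mean log2 CPM was 0 or more and whose groups did not overlap, 1 per region, the 3 longest regions per direction, and the 5 most abundant stretches in N2; the text names a selection of these. Ratios of pooled reads carry an exact binomial 95% interval, and floors are 3 reads; both cover counting error only. Shares per library were compared by exact permutation with scipy 1.17.1 under Python 3.11.15. Correlation of log2(CPM + 0.5) between replicates over the tested windows of the centre was 0.929 to 0.994, and no columns were identical. The fit was tested on simulated data. Alternatives were RLE scaling, no filter, the 6 libraries compared, all 21 libraries (with lin-61 met-2, outside the genotypes compared here), DESeq2 1.42.0, subtraction of background, a prefix term, leaving out the libraries labelled nrde-3 met-2, and leaving out each library, with the filter set anew and with the tested windows kept the same. The windows, comparisons and tests were chosen with earlier results of these data known. Gene names and sequences were not used, since no annotation or genome of ce10 was at hand.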

Additional observations from a re-analysis of the deposited data

Results flagged for a closer look

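The change at 3 windows raised in lin-61 went opposite ways with set-25 on the 2 backgrounds, with no overlap of libraries on either side. At V 8872001 to 8872500 the log2 fold change was 3.75 in nrde-3 set-25 against nrde-3 and -2.76 in lin-61 set-25 against lin-61. At V 8830501 to 8831000 it was 5.65 on the nrde-3 background and -4.03 on that of lin-61, and at V 8828001 to 8828500 it was 6.01 and -2.99. Each value had an edgeR adjusted p below the threshold, but V 8830501 passed the minimum read number in all 3 libraries of lin-61 and of no other genotype. The difference between the backgrounds was not tested. The lin-61 pair crosses the title prefix and the nrde-3 pair does not, so prefix and background cannot be told apart here. The 3 nrde-3 libraries together held 2, 0 and 1 reads in these windows in the order given, so the positive values depend on the prior count.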

How the results depend on the processing

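Of 98 counts of called windows over alternatives other than leaving out a library, 65 stayed within 1.5 times the count reported and 33 did not. Without a filter on low counts, lin-61 against N2 had 83 windows lower, the libraries labelled nrde-3 met-2 against nrde-3 had 7803 higher and 694 lower, nrde-3 set-25 against nrde-3 had 699 higher, and nrde-3 set-25 against lin-61 set-25 had 372 lower. With only the 6 libraries compared, the counts were 1996 higher and 572 lower in lin-61 against N2, 360 and 0 in the libraries labelled nrde-3 met-2 against nrde-3, 566 and 16 in nrde-3 set-25 against nrde-3, and 12 and 5 in nrde-3 set-25 against lin-61 set-25. DESeq2 called 299 lower in lin-61 against N2, 572 higher in nrde-3 against N2, 137 lower in the libraries labelled nrde-3 met-2, 490 higher and 39 lower in nrde-3 set-25 against nrde-3, and 89 higher and 265 lower in nrde-3 set-25 against lin-61 set-25. With background subtracted, the libraries labelled nrde-3 met-2 had 208 higher and 13 lower, and nrde-3 set-25 against nrde-3 had 183 and 4. Without the libraries labelled nrde-3 met-2, lin-61 against N2 had 321 lower and nrde-3 set-25 against nrde-3 had 18 lower. With all 21 libraries the lower counts were 66 in the libraries labelled nrde-3 met-2 and 14 in nrde-3 set-25, both against nrde-3, and RLE scaling gave 40 lower in the libraries labelled nrde-3 met-2. The shares over all tested windows moved as well. DESeq2 called 3.13% of them higher in nrde-3 set-25 against nrde-3, where the main fit called 1.91%. It called 5.45% higher in nrde-3 against N2, where the main fit called 3.4%. The cause of these shifts was not tested. Leaving out the 90 kb block, an alternative chosen after seeing the data, moved no count by over 1.5 times.

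With a prefix term, nrde-3 against N2 had 136 higher and 5 lower, and lin-61 set-25 against lin-61 had 290 and 9, by construction those of set-25 in nrde-3. The term takes set-25 to act alike on both backgrounds, which was not tested, and the nrde-3 libraries cancel out of the first contrast. The log2 fold change turned to 1.16 at V 14112001, 5.93 at V 8828001, 1.47 at V 6221001 and 0.47 at V 13965001 in nrde-3 against N2, and to 5.65 at V 8830501, 1.82 at V 8872501, 0.10 at V 6223001 and 0.16 at V 8039501 in lin-61 set-25 against lin-61.

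Leaving out 1 library at a time also changed which windows passed the filter, from 8713 of the centre to between 8842 and 11177 by the library dropped, so each was repeated with the tested windows kept the same, an alternative chosen after seeing the data. Over both forms the higher counts ran from 572 to 1235 in lin-61 against N2, 105 to 300 in nrde-3 against N2, 358 to 3120 in the libraries labelled nrde-3 met-2 against nrde-3, 36 to 213 in nrde-3 set-25 against nrde-3, 702 to 1859 in lin-61 set-25 against lin-61, and 18 to 96 in nrde-3 set-25 against lin-61 set-25. The lower counts ran from 15 to 94, 365 to 511, 1 to 218, 0 to 8, 698 to 910, and 17 to 623 in the same order. With the same windows the higher count in the libraries labelled nrde-3 met-2 ran from 358 to 953, and the lower count was 1 and 149 when their replicates a or c were dropped and 11 and 14 when nrde-3 b or c was dropped. The lower count of nrde-3 set-25 against its single was then 0, 1 and 3 when nrde-3 set-25 a, b or c was dropped, and 1 and 0 when nrde-3 b or c was dropped.

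The share of all reads in the centre, as a difference in percentage points, changed sign without the 100 most abundant windows in 5 comparisons: to 0.0329 in lin-61 against N2, 0.139 in nrde-3 against N2, 0.0925 in the libraries labelled nrde-3 met-2 against nrde-3, 0.426 in lin-61 set-25 against lin-61 and -0.136 in nrde-3 set-25 against lin-61 set-25. The share of chromosome V reads turned to -0.0289 in nrde-3 set-25 against nrde-3 and -0.00047 in nrde-3 set-25 against lin-61 set-25. Without 1 library, the share of all reads ran from -0.458 to 0.318 in lin-61 against N2 and -0.531 to 0.113 in lin-61 set-25 against lin-61, and the share of chromosome V reads from -5.30 to 3.08 in lin-61 against N2, -2.04 to 6.34 in nrde-3 against N2 and -0.0533 to 5.56 in lin-61 set-25 against lin-61. The share of windows at 5 CPM in place of 1 CPM turned to -0.305 in nrde-3 against N2, -0.523 in the libraries labelled nrde-3 met-2 against nrde-3 and -0.149 in lin-61 set-25 against lin-61.

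No paired analysis was possible because the columns carry letters and no replicate numbers. The depth of the nrde-3 and double libraries limits what can be seen in quiet windows, since 0 reads over 3 libraries allow up to 3, and 3 against 3 libraries cannot pass 0.05 in a permutation test.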
